A study of Mus musculus with 6 samples.

Results

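Trp63 and Trp73 encode p63 and p73, transcription factors of the p53 family. Both genes were taken by symbol from 16380 genes measured on 6 Affymetrix Mouse Exon 1.0 ST arrays, and they carry 37 of 229581 probe sets, 21 for Trp63 and 16 for Trp73. Such arrays carry separate probe sets for single exons of a gene, so each gene can be read probe set by probe set. Olfactory epithelium came from 3 male C57BL/6 mice, bulbectomized on one side and sampled 5 days later. The sample labels give an age of 8 weeks, and the methods of the study give another age at surgery. The OBX group is the epithelium ipsilateral to the olfactory bulbectomy, where olfactory sensory neurons (OSNs) lost their target, and the control group is the epithelium contralateral to it, with 1 array per side and mouse. The control side therefore shared the animal, the surgery and the time point with the OBX side, and no unoperated mouse was analysed here.

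The p53 family proteins bind the same class of DNA element through a conserved core domain. Each of Trp63 and Trp73 has a promoter at its start and another inside the gene, which give long TA proteins with an amino-terminal transactivation domain and short ΔN proteins without it, and alternative splicing near the end of the transcript changes the carboxy terminus. In the olfactory epithelium of the mouse, p63 marks horizontal basal cells, the reserve stem cells on the basal lamina, where the ΔN form keeps them at rest. In the mouse, p73 is known for its role in multiciliated cells, where the TA form acts upstream of Foxj1, and for Cajal-Retzius neurons. The tables used here give each probe set a gene but no position, and the probe set numbers do not follow gene order, so probe sets are named by number, ordered by their difference between sides, and assigned to neither TA, ΔN nor carboxy-terminal exons.

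All values are log2 signals from robust multichip analysis (RMA), corrected for background and normalized between arrays, and every difference is OBX minus control within a mouse. The array medians lay between 8.37 and 8.55, and signals of the same side correlated over probe sets at r = 0.970 to 0.983. Omp, the defining marker of mature OSNs, had signals of 13.61, 12.66 and 13.35 on the OBX side of mice 1, 2 and 3 and of 14.28, 14.19 and 14.19 on the control side, and fell by 1.01 (SE 0.19, limma adjusted p = 0.024). Of all 14742 genes tested, 9.89% were called higher and 12.7% lower on the OBX side at an adjusted p under 0.05. In RNA from a whole tissue, more cells of a type and more RNA per cell cannot be told apart.

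Trp63 was more abundant on the OBX side in each of the 3 mice, by a small amount that did not pass the test. Its gene signal, the median polish of its 21 probe sets, was 8.20, 8.04 and 8.14 on the OBX side of mice 1, 2 and 3 and 7.88, 7.68 and 7.91 on the control side. All OBX values lay above all control values, as they did for 20.7% of genes. The means were 8.13 ± 0.08 on the OBX side and 7.82 ± 0.13 on the control side (SD, n = 3 each). The difference was 0.31 (SE 0.08, 95% confidence interval 0.09 to 0.52), or 1.24-fold, with a limma unadjusted p = 0.0154 and an adjusted p = 0.0605. It passed the threshold when the lowest 30% of genes by signal were left out (adjusted p = 0.0438) or the mean of probe sets replaced median polish (adjusted p = 0.0480). The methods' paired t-test on this gene signal gave an unadjusted p = 0.0159. From the authors' own gene-level values, the paper reports Trp63 as increased, with a smaller unadjusted p and a slightly larger fold. It also shows Trp63 in situ signal in horizontal basal cells of both sides.

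Trp73 did not differ between sides beyond the spread among mice. Its gene signal was 7.67, 7.21 and 7.46 on the OBX side of mice 1, 2 and 3 and 7.16, 7.37 and 7.22 on the control side. The OBX side was higher in mice 1 and 3 and lower in mouse 2, and the groups overlapped. The means were 7.45 ± 0.23 on the OBX side and 7.25 ± 0.11 on the control side (SD, n = 3 each). The difference was 0.20 (SE 0.15, 95% confidence interval -0.19 to 0.58), with a limma adjusted p = 0.385. It ranged between 0.02 without mouse 1 and 0.30 without mouse 2, so mouse 1 carried most of it.

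The difference of Trp63 exceeded that of Trp73 by 0.53 in mouse 2 and lay below it by 0.20 and 0.01 in mice 1 and 3. The mean gap of 0.11 ± 0.38 (SD, n = 3) had an exact two-sided permutation p = 1, where 3 mice cannot go below 0.25. That test could not have passed at this size, so it gives no answer on whether the genes differed in response.

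**Figure D1:**
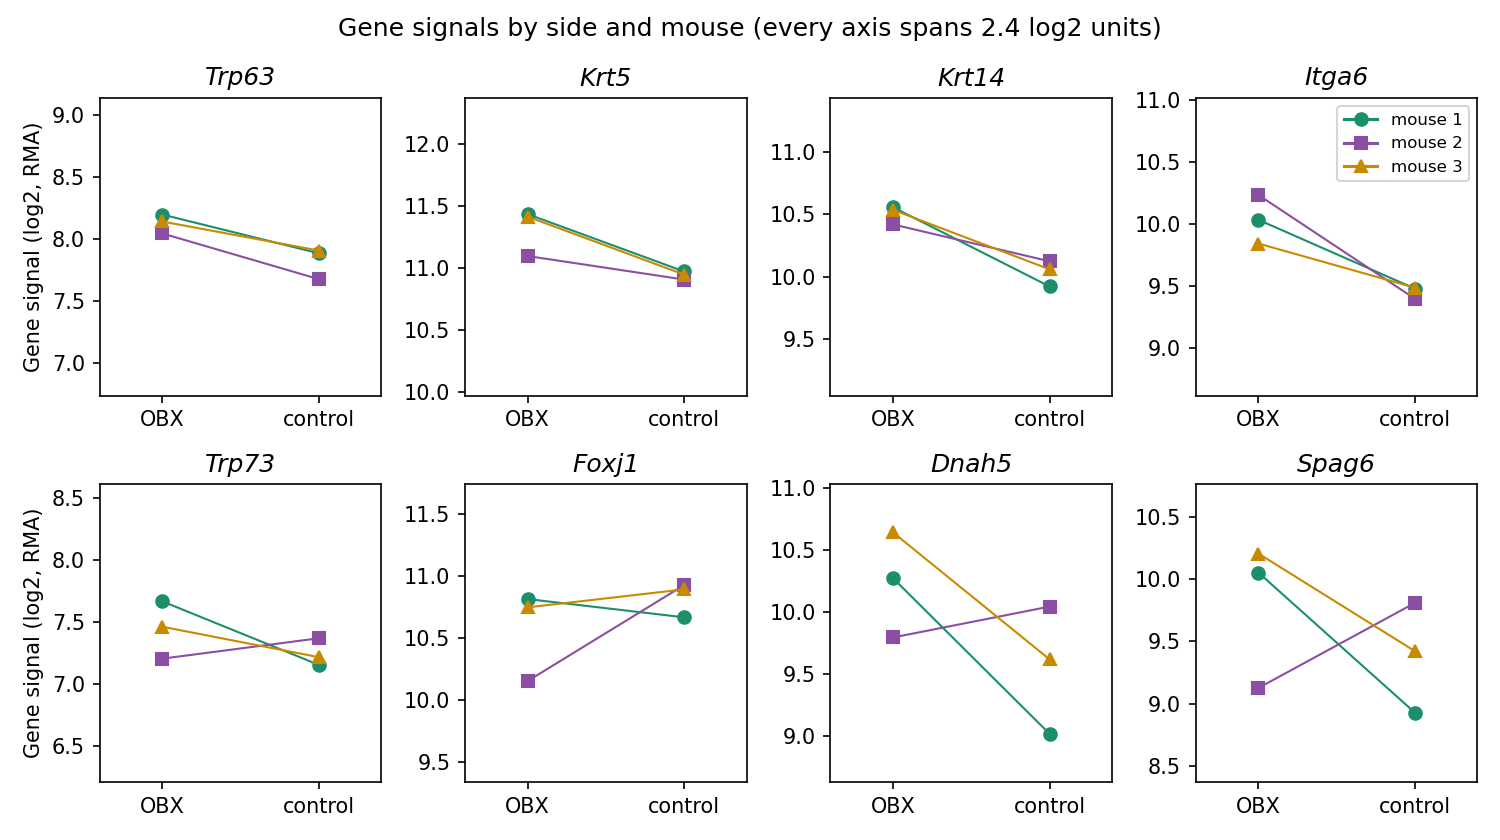
Gene signals (log2, RMA) on the OBX side (left of each panel) and the control side (right), with a line per mouse and axes of equal span. Trp63 was higher on the OBX side in all 3 mice, as were Krt5, Krt14 and Itga6. Trp73, Dnah5 and Spag6 were higher in mice 1 and 3 and lower in mouse 2, and Foxj1 was higher in mouse 1 only. Dnah5, Spag6 and Foxj1 were not called. The 4 called markers of motile ciliated cells, Dnah11, Ccdc39, Ccdc40 and Rsph9, are not drawn and were lower in each mouse.

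At the level of probe sets, 5.24% of the 206622 tested were called, 1.71% as higher and 3.53% as lower. None of the 18 tested probe sets of Trp63 and none of the 16 of Trp73 was called by limma at an adjusted p under 0.05. At an unadjusted p under 0.05, 7 probe sets of Trp63 and 2 of Trp73 passed, all of them higher on the OBX side, against 14.7% of all probe sets that passed as higher. The methods' paired t-test at its unadjusted threshold gave 5 for Trp63, 4 of them higher and 1 lower, and 1 for Trp73, which was higher. The lower one, 4791908, had the smallest p of the 5.

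Across all 21 probe sets of Trp63, 17 had a higher mean on the OBX side and 4 a lower one. Differences ranged between -0.44 and 1.15 with a median of 0.30, against a median of 0.02 over all probe sets tested. Higher signals in all 3 mice were found for 12, lower signals in all 3 mice for 3, and mixed directions for 6. Among all probe sets, 26.1% were higher and 23.7% lower in all 3 mice. For 9 of the 21 every OBX value lay above every control value, which was so for 16.9% of all probe sets, and for none of the 21 did every OBX value lie below. Probe sets of a gene can read shared or unlike transcripts, but always on the same arrays, so they are not replicates of one another.

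**Figure D2:**
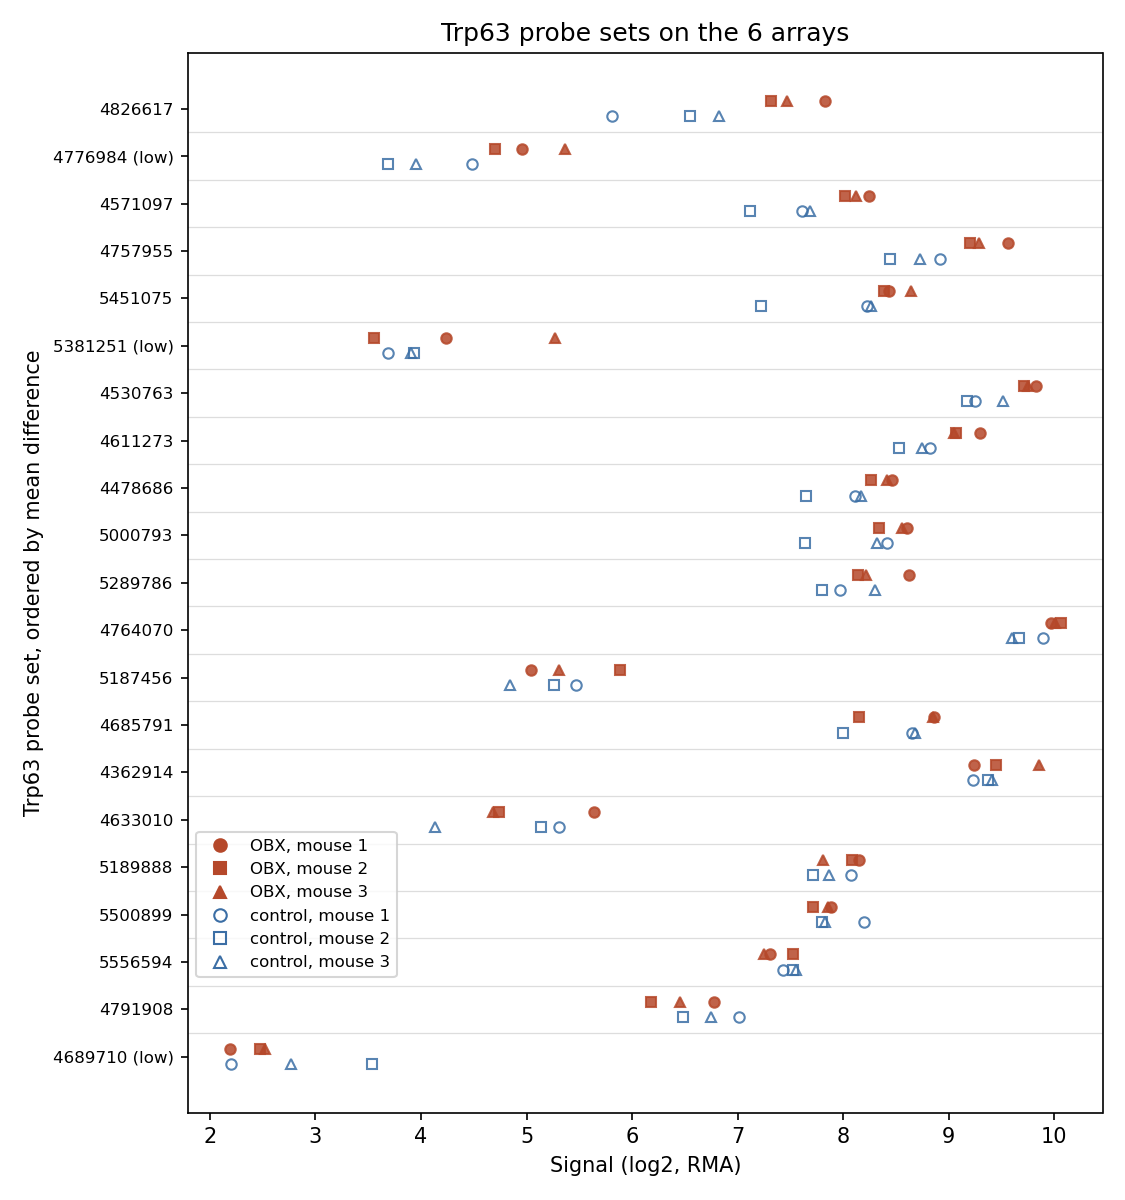
Signal (log2, RMA) of the 21 Trp63 probe sets on each array, ordered from the largest to the smallest mean difference. Filled marks are OBX and open marks control, with a shape per mouse, and "low" marks the 3 probe sets below the signal filter. OBX and control marks are fully apart in 9 probe sets and overlap in the others.

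The largest Trp63 difference belonged to probe set 4826617. Its signal was 7.83, 7.32 and 7.46 on the OBX side of mice 1, 2 and 3 and 5.81, 6.55 and 6.82 on the control side. Every OBX value was above every control value, and the gap was widest in mouse 1. The differences were 2.02, 0.77 and 0.65, with a mean of 1.15 (SE 0.30) and a limma adjusted p = 0.0882.

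Among the tested probe sets, 4571097 and 4757955 followed with smaller but more even differences. The first had signals of 8.24, 8.02 and 8.12 on the OBX side and 7.61, 7.12 and 7.69 on the control side, a difference of 0.66 (SE 0.15, limma adjusted p = 0.0724). The second had signals of 9.56, 9.20 and 9.28 on the OBX side and 8.92, 8.45 and 8.72 on the control side, a difference of 0.65 (SE 0.14, limma adjusted p = 0.0588). The groups did not overlap in either. Both passed the threshold with the lowest 30% of probe sets left out (adjusted p = 0.0314 and 0.0234).

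The other 5 tested probe sets with separate groups differed less. Probe set 5451075 had signals of 8.44, 8.38 and 8.64 on the OBX side and 8.22, 7.22 and 8.26 on the control side, so its difference of 0.59 leaned on the low control value of mouse 2. Probe set 4530763 had 9.83, 9.71 and 9.75 on the OBX side and 9.24, 9.18 and 9.51 on the control side, a difference of 0.45. Probe sets 4611273, 4478686 and 4764070 differed by 0.44, 0.40 and 0.29. None of these 5 passed the adjusted threshold.

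A second set of Trp63 probe sets did not share the higher OBX signal. Probe set 4791908 had signals of 6.78, 6.18 and 6.45 on the OBX side and 7.02, 6.49 and 6.74 on the control side. Each mouse was lower on its OBX side, by 0.24, 0.30 and 0.29, while the groups overlapped because the mice differed in level. The mean difference was -0.28 (SE 0.13, limma adjusted p = 0.25), and it passed as lower only by the methods' unadjusted test. Probe set 5556594 had 7.30, 7.52 and 7.25 on the OBX side and 7.43, 7.53 and 7.56 on the control side, a difference of -0.15. Probe set 5500899 had 7.88, 7.71 and 7.85 on the OBX side and 8.20, 7.80 and 7.83 on the control side, a difference of -0.13. Both lay within their spread, with overlapping groups.

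Of the other tested probe sets, 5000793, 5289786, 5187456, 4685791, 4362914, 4633010 and 5189888 had mean differences between 0.13 and 0.38 and overlapping groups. Probe set 4685791 was the steadiest of them, with 8.86, 8.15 and 8.85 on the OBX side and 8.66, 8.00 and 8.68 on the control side. Probe sets 4776984, 5381251 and 4689710 fell below the signal filter at 4.88 and were not tested. Their mean differences were 0.97, 0.51 and -0.44, which are the second, the sixth and the lowest of the 21. The groups of 4776984 did not overlap, with 4.96, 4.70 and 5.36 on the OBX side and 4.48, 3.69 and 3.95 on the control side, so it is the ninth probe set with separate groups.

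**Figure D3:**
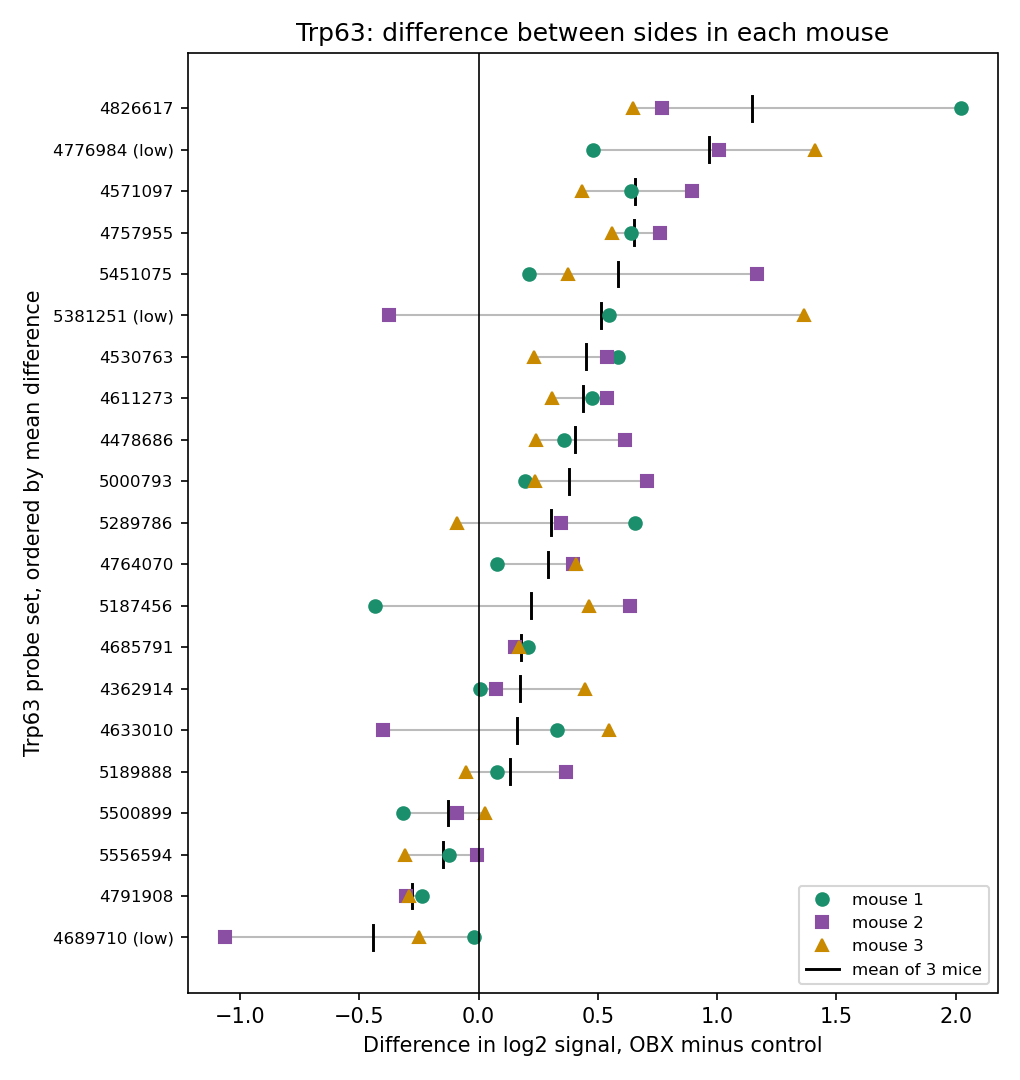
Difference in log2 signal (OBX minus control) of each Trp63 probe set in each mouse, with a vertical bar at the mean of 3 mice and the same order of probe sets. Differences run from 1.15 for 4826617 to -0.28 for 4791908 among the tested probe sets, and the mean line is right of 0 in 17 of 21.

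Exon usage asks whether the probe sets of a gene differ between sides by unlike amounts. Each probe set was set against the mean of the other probe sets of its gene (limma diffSplice), and 7.99% of 13357 genes were called by the Simes test. Trp63 was among them, with an adjusted p = 0.0157 over 17 probe sets, and its F-test gave an adjusted p = 0.0263. The call rested on probe set 4826617, whose difference exceeded that of the other probe sets by 0.88 (adjusted p = 0.0107, where 0.848% of probe sets were called). Probe set 4791908 came next, 0.64 below the others (relative difference -0.64, adjusted p = 0.121), and 5556594 and 5500899 had relative differences of -0.50 and -0.48. The differences of Trp63 probe sets had an SD of 0.343, larger than in 84.3% of genes, against a median of 0.197 over genes.

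The Trp63 exon usage call was not firm. It was lost without mouse 1 (adjusted p = 0.143) or mouse 3 (0.183) and held without mouse 2 (0.0459), and it was lost when 4826617 was left out (0.119), without the mouse block (0.0669), without the signal filter (0.0798) and with the lowest 30% of probe sets left out (0.167). diffSplice shares one spread among the probe sets of a gene, and on simulated data it made false calls where those spreads differed. With each probe set given its own spread, the adjusted p was 0.365, and none of 13357 genes passed by that fit, 1803 of them at an unadjusted p under 0.05.

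The 16 probe sets of Trp73 were all tested, and their direction went by mouse. In mouse 1, 16 of 16 were higher on the OBX side, in mouse 2 it was 5 of 16, and in mouse 3 it was 16 of 16. The median difference was 0.45 in mouse 1, -0.23 in mouse 2 and 0.24 in mouse 3. Over the means of 3 mice, 13 were higher and 3 lower, with a range between -0.21 and 0.53 and a median of 0.17. Only 5 of 16 were higher in all 3 mice, and none was lower in all 3.

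Probe set 4458047 had the largest Trp73 difference. Its signal was 7.00, 6.71 and 7.45 on the OBX side of mice 1, 2 and 3 and 6.15, 6.60 and 6.83 on the control side, a difference of 0.53 (SE 0.19, limma adjusted p = 0.155). Probe set 4383776 had 7.23, 6.77 and 7.25 on the OBX side and 6.42, 6.30 and 7.01 on the control side, a difference of 0.51 (SE 0.16, limma adjusted p = 0.132). The groups overlapped in both, although each mouse was higher on its OBX side. Probe set 5191699 was the only one with separate groups, with 8.72, 8.18 and 8.24 on the OBX side and 7.78, 8.17 and 8.00 on the control side, and there the sides of mouse 2 were nearly equal.

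Probe sets 4519937 and 4355525 were also higher in all 3 mice, by 0.26 and 0.14 on average. At the other end, probe set 4739020 had 6.95, 5.72 and 6.67 on the OBX side and 6.82, 6.47 and 6.66 on the control side. Its mean of -0.21 came from mouse 2 alone, since mice 1 and 3 were slightly higher on the OBX side. Probe sets 4324855 and 4772514, with means of -0.14 and -0.13, had the same pattern. Exon usage of Trp73 was not called (Simes adjusted p = 0.992), and the SD of its probe set differences, 0.220, was larger than in 57.5% of genes.

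**Figure D4:**
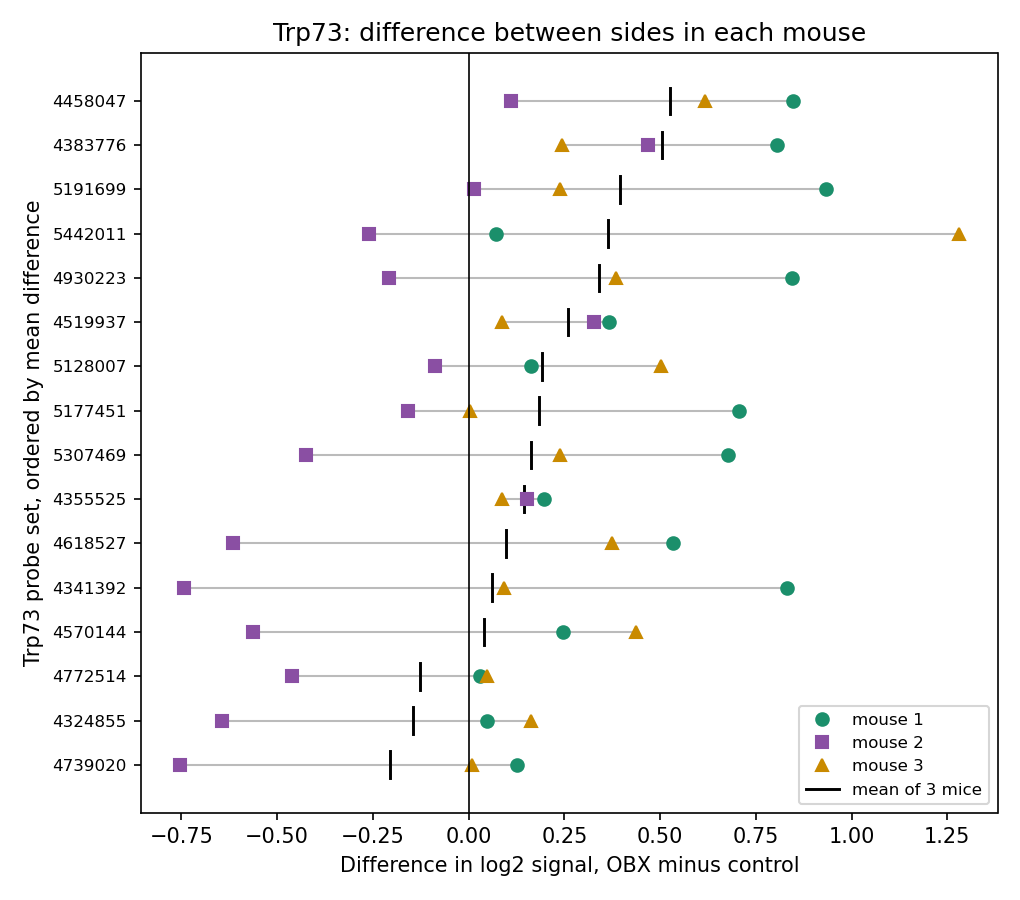
Difference in log2 signal (OBX minus control) of each Trp73 probe set in each mouse, ordered by mean difference, with a vertical bar at the mean of 3 mice. Mouse 1 and mouse 3 lie right of 0 in 16 of 16 probe sets and mouse 2 in 5 of 16.

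RefSeq promoter sequences (GRCm38.p6) were matched by symbol. Trp73 had 2 annotated starts, at the beginning of the gene and inside it, whose upstream sequences are shown because the gene has alternative promoters. The 250 bases before each start, both on the minus strand, at chr4:154139876-154140125 and chr4:154097174-154097423, have no capitals. Capitals mark only matches to the p53 half-site consensus, the element shared by the family, and neither stretch held one.
Trp73 start 1: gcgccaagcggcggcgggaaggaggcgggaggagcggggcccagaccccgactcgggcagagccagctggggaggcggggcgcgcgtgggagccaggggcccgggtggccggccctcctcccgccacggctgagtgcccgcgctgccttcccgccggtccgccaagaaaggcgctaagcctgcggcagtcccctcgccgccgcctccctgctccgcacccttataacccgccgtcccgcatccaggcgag
Trp73 start 2: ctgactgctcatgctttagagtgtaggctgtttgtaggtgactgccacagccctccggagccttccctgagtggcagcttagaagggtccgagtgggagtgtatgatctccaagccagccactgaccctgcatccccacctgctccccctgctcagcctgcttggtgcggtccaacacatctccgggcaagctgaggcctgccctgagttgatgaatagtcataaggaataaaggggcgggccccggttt
Neither held a p53 half-site consensus, the element shared by the family, nor TTTNGCGC, an element of E2F factors, nor TATAAA, the TATA box, searched on both strands over 300 bases up to 50 past the start. Of 32851 promoters of that length, 8.36% held the half-site consensus, 1.38% TTTNGCGC and 13.6% TATAAA. For Trp63 no sequence is shown.

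Genes around Trp63 were described from lists of p53 family regulators, of shared p53 family targets and of p63 targets in basal epithelia. They were set against 9.89% of all genes higher and 12.7% lower. Of 24 regulators of p53 family proteins tested, 5 rose, none fell and 19 were not called, with a median of 0.11 against -0.01 over all genes. Wwtr1, which encodes TAZ, a coactivator of the Hippo pathway, had signals of 8.90, 8.93 and 8.85 on the OBX side and 8.39, 8.36 and 8.39 on the control side, with no overlap. It rose by 0.51 (SE 0.08, limma adjusted p = 0.0171). Its paralogue Yap1, a coactivator that binds p73, rose by 0.42 (adjusted p = 0.0284). The ubiquitin ligase gene Nedd4 rose by 0.44 (adjusted p = 0.0311), Abl1, a kinase that phosphorylates p73, by 0.35 (adjusted p = 0.0412) and Twist1, a basic helix-loop-helix factor, by 0.63 (adjusted p = 0.0483). Mdm2, the ubiquitin ligase that restrains p53, differed by 0.02 and Itch, a ligase for p63 and p73, by 0.01. The count was 2 without mouse 1, 2 without mouse 2 and 0 without mouse 3, where 23 genes in all were called higher.

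Of 39 shared p53 family targets tested, 6 rose and none fell, with a median of 0.10. They were Gadd45g, Gadd45b and Gadd45a, stress sensors of which Gadd45g also marks neuronal precursors, with differences of 0.74, 0.69 and 0.45, the angiogenesis inhibitor Thbs1 (0.64), the autophagy gene Dram1 (0.42) and the kinase Plk2 (0.46). Cdkn1a, which encodes the cell cycle inhibitor p21 and is the classic target of p53, had signals of 10.02, 9.95 and 9.78 on the OBX side and 10.31, 10.01 and 10.28 on the control side. It was lower on the OBX side in each mouse, with overlapping groups and a difference of -0.28 (limma adjusted p = 0.135). The list was split among members that were not called. Rrm2b (-0.36), Ercc5 (-0.30), Polk (-0.29) and Sesn2 (-0.27) were also lower in each mouse, whereas Phlda3 (0.39) and Eda2r (0.37) were higher in each. The count was 3, 5 and 0 without mice 1, 2 and 3.

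Of 48 p63 targets tested, 15 rose, none fell and 33 were not called, with a median of 0.32. Krt14, a keratin of basal cells, had signals of 10.56, 10.42 and 10.54 on the OBX side and 9.92, 10.12 and 10.06 on the control side, and rose by 0.47 (SE 0.10, limma adjusted p = 0.0346). Its partner Krt5 had 11.44, 11.10 and 11.42 on the OBX side and 10.97, 10.91 and 10.95 on the control side, a difference of 0.37 that missed the threshold (adjusted p = 0.0558). The groups did not overlap in either keratin.

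The 5 p63 targets with the smallest p were the transcription factor Runx1 (0.79, adjusted p = 0.00767), the proliferation factor Myc (0.74, adjusted p = 0.0114), the growth factor receptor Fgfr2 (0.77, adjusted p = 0.0128), the basement membrane gene Fras1 (0.85, adjusted p = 0.0139) and the IGF binding protein gene Igfbp3 (0.60, adjusted p = 0.0161). Several of them are also expressed outside basal cells. Of the Notch ligands on the list, Jag1 differed by -0.28 (adjusted p = 0.0883) and Jag2 by -0.56 (adjusted p = 0.0501). The count of 15 was 10, 8 and 0 without mice 1, 2 and 3, and 9 with the median of probe sets as the gene signal. Over the mice, the list mean was 0.30, 0.25 and 0.29, and the difference of Trp63 was 0.31, 0.37 and 0.23.

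Of 49 measured p63 targets, 29 had a promoter sequence. Counted by gene, the p53 half-site consensus was in 3 of them (10.3%), Krt5, Col17a1 and Cdkn1a. The 8.36% given above is in another unit, a share not of genes but of single promoters. Those of Krt5 (chr15:101712906-101713155, minus strand) and Cdkn1a (chr17:29090729-29090978, plus strand) are shown for the 250 bases before the start, since the keratin was higher and the p21 gene lower in each mouse, with the half-sites in capitals.
Krt5: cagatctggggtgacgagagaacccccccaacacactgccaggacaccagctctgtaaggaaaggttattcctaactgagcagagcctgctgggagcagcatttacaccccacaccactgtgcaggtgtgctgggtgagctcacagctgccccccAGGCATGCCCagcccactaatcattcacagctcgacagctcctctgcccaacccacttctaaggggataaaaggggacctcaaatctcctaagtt
Cdkn1a: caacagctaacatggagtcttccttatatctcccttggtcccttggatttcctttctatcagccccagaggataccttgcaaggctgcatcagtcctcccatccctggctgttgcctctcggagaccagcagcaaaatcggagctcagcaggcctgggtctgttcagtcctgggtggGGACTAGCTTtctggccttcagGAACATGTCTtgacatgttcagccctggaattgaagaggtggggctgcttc
The Krt5 match begins 95 bases before the start (offset -95), and Col17a1, a hemidesmosome collagen, has its match 15 bases past the start. Col17a1 differed by 0.28 (adjusted p = 0.0966). A match of letters is not a bound site.

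**Figure D5:**
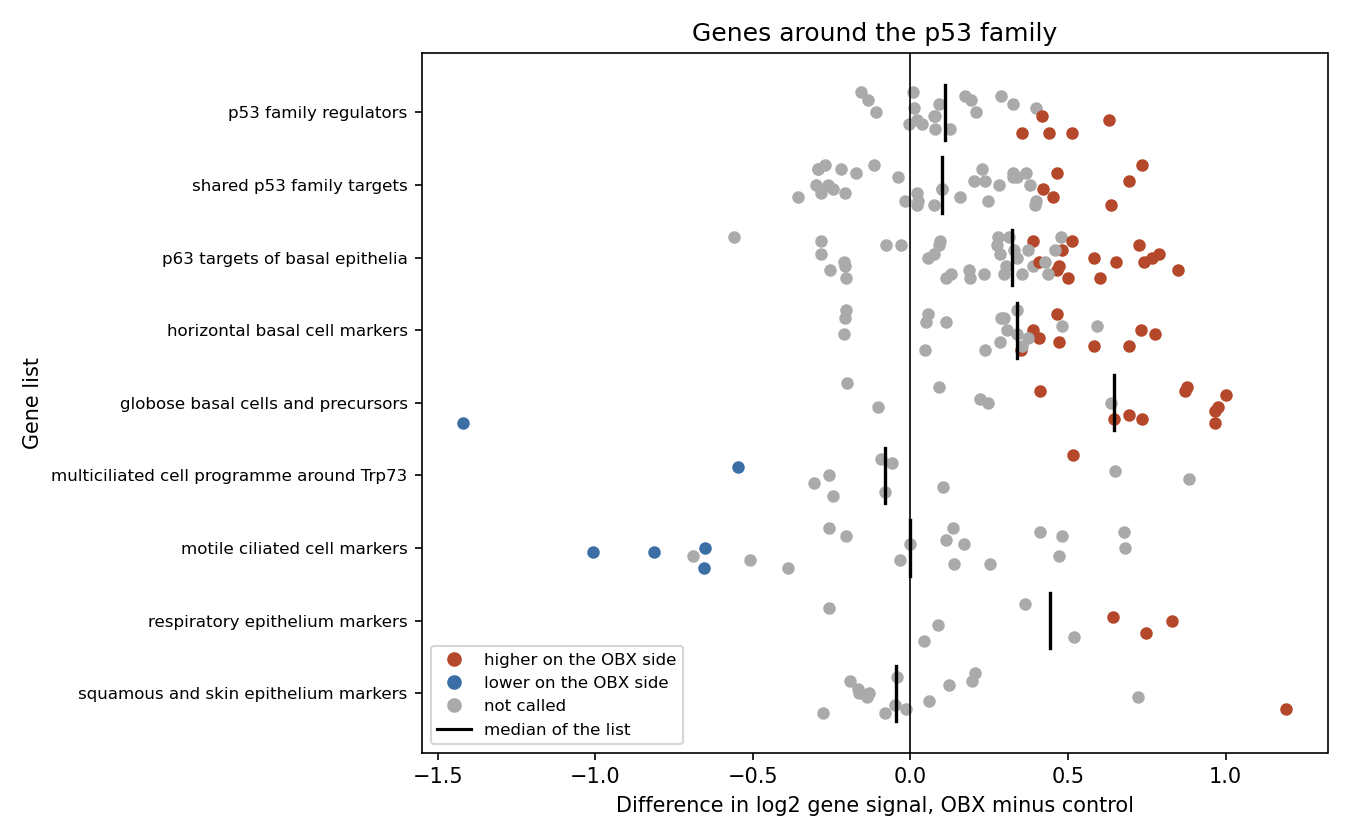
Difference in log2 gene signal (OBX minus control) of each tested gene in 9 lists, as points, with a vertical bar at each list's median. Red points were called higher and blue points lower at a limma adjusted p under 0.05, and red points lie in every list but that of motile ciliated cells, which holds 4 blue points.

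Markers of the cells that hold these genes moved in part beside them. Of 27 horizontal basal cell markers, Trp63 itself included, 9 rose and none fell, against 9.89% of all genes higher and 12.7% lower. The list had a median of 0.34 and means of 0.39, 0.28 and 0.26 over the mice. The same shares of all genes are the background for every marker list below. The adhesion genes Cd44 (0.73, adjusted p = 0.0155), Itga6 (0.58, adjusted p = 0.031), Itgb4 (0.46, adjusted p = 0.0353) and Icam1 (0.35, adjusted p = 0.0478) rose. So did Igfbp2 (0.78, adjusted p = 0.0326). Other members leaned the opposite way without a call. Bnc1 (-0.21) was lower on the OBX side in each mouse, Sfn (-0.21) was higher in mouse 1 only and Dst (-0.21) in mouse 2 only. On the list of p63 targets were also 13 of the 27. The count was 3, 4 and 0 without mice 1, 2 and 3. Of 17 markers of globose basal cells and precursors, 10 rose and 1 fell. The proneural factor gene Neurog1 rose by 0.87 (adjusted p = 0.00535). The member that fell was Cbx8, with a difference of -1.42 (adjusted p = 0.00549), larger in size than any rise on the list. Without mouse 3, only 1 of the 17 was called higher and 1 lower. Of 16 squamous and skin markers, 1 rose, Sprr3 (1.19, adjusted p = 0.0094), and the median was -0.05. The part of these cell types in the Trp63 values was not tested.

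Beside Trp73, 1 of 11 genes of the multiciliated programme rose and 1 fell, a share near that of all genes (9.89% higher and 12.7% lower). Without mouse 2, 3 were called higher and 0 lower, and without mouse 3 none was called. Plk4, a kinase of centriole assembly, rose by 0.52 (adjusted p = 0.037), and Rfx3, a transcription factor of cilia genes, fell by 0.55 (adjusted p = 0.0374). Foxj1 had signals of 10.81, 10.15 and 10.74 on the OBX side and 10.66, 10.92 and 10.89 on the control side, a difference of -0.26 (adjusted p = 0.378). Deup1, a gene of centriole amplification, had 7.96, 7.05 and 7.99 on the OBX side and 6.41, 7.30 and 6.62 on the control side. Deup1 was higher on the OBX side in mice 1 and 3 and lower in mouse 2, as Trp73 was.

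Of 21 motile ciliated cell markers, 4 fell and none rose, with a median of -0.00. The calls depended on the mice: leaving out mouse 2 gave 5 higher and 3 lower, and leaving out mouse 3 gave 0. The list mean was 0.44, -0.74 and 0.06 in mice 1, 2 and 3, and the difference of Trp73 was 0.51, -0.16 and 0.25. The 4 called members, Dnah11, Ccdc39, Ccdc40 and Rsph9, were lower on the OBX side in each mouse, unlike Trp73. Their mean differences were -0.65, -0.66, -1.01 and -0.81. Dnah5, a motor protein of motile cilia that was not called, was higher in mice 1 and 3 and lower in mouse 2. It had signals of 10.27, 9.80 and 10.64 on the OBX side and 9.02, 10.04 and 9.62 on the control side. Of 8 respiratory epithelium markers, 3 rose, including the mucin Muc5b by 0.83 (adjusted p = 0.014), and 5 were not called. Among those 5 was Reg3g (0.36, adjusted p = 0.0694), which the paper names as the canonical marker of respiratory epithelium. Of 9 markers of Cajal-Retzius and vomeronasal neurons, 3 rose and 1 fell, with a median of -0.22. Ndnf (0.74), Cxcr4 (0.57) and Gnai2 (0.55) rose and Ebf3 (-0.51) fell. Cxcr4 is also on the list of immature OSN markers. Without a call, Gnao1 (-0.30), Lhx5 (-0.26), Trpc2 (-0.22) and Tbr1 (-0.22) were lower in each mouse, and Reln (0.60) was higher in each. The part of ciliated cells in the Trp73 values was not tested.

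Of the other markers, all 11 of mature OSNs fell, with a median of -1.41, and of 20 macrophage markers 8 rose, with a median of 0.74. Without mouse 3, the counts were 6 lower for mature OSNs and 2 higher for macrophages, and for macrophages the count was 4 without the mouse block and 13 with the lowest 30% of genes left out. Against 9.89% of all genes higher and 12.7% lower, immature OSN markers rose in 3 and fell in 3 of 15. Sustentacular markers rose in 2 and fell in 1 of 16. For both of these lists, and for the respiratory, squamous and Cajal-Retzius lists, no member was called without mouse 3.

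The genes whose signals followed Trp63 most closely over the 6 arrays were Cnot7 (Pearson r = 0.995), Tbl1x (0.992), Neurog1 (0.991), Cnpy1 (0.990) and Actn3 (0.988). Those closest to Trp73 were Irak2 (0.991), Nt5e (0.989), Il22ra1 (0.987), Gtf3a (0.984) and Entpd4 (0.984). These are the highest of 14742 correlations over 6 arrays that share mice and sides, given as a description.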

How the data were processed

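RNA from both sides of 3 mice was hybridized to 6 exon arrays. The log2 values were deposited by the authors, who ran RMA in Affymetrix Expression Console, and hold a value per exon-level probe set. For its version and the genome build, nothing is stated in the labels or methods. Of 229581 probe sets, 209279 had exactly 1 symbol in the platform annotation, updated through RefSeq where needed, and were combined per gene by Tukey's median polish. Genes, or probe sets, in the lowest 10% by mean signal were dropped. Side effects were estimated by limma 3.58.1 in R 4.3.3 (lmFit and eBayes, mouse as a block, two-sided, Benjamini-Hochberg over all features tested, threshold 0.05), and exon usage by diffSplice for genes with at least 4 probe sets. Python 3.11.15 with matplotlib 3.10.9 drew the figures. The gene-level and exon usage fits were tested on simulated data. There, diffSplice made false calls where the probe sets of a gene differed in spread, and the fit with separate spreads made fewer. Only 3 arrays per side limit the precision.

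Labels and methods pair the sides of a mouse. With side means removed, paired arrays had correlations of -0.07, 0.27 and 0.24. Nothing says whether RNA batches differed. Alternatives varied the block, filter, scaling, summary, moderation, test and mice. Leaving out probe set 4826617 or dim probe sets, and separate spreads per probe set, were chosen after seeing the data. Probe set positions were not used. Members, 15 gene lists and tests were chosen with earlier results of these data known. Named were all probe sets of both genes, each called regulator, up to 5 called members and 2 defining markers per list and the 5 genes most like each member, some left out for length. Mdm2, Itch, Cdkn1a, Jag1, Jag2, Col17a1, Deup1 and Dnah5 were chosen after their values were seen. The same holds for Rrm2b, Ercc5, Polk, Sesn2, Phlda3, Eda2r, Bnc1, Sfn, Dst, Reln, Gnao1, Lhx5, Tbr1 and Trpc2.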

Additional observations from a re-analysis of the deposited data

How the results depend on the processing

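The Trp63 difference between sides kept its direction under every alternative and passed the threshold under 3 of them. It was 0.31 with the lowest 30% of genes left out (adjusted p = 0.0438), 0.32 with the mean of probe sets (adjusted p = 0.0480), and 0.31 by the methods' paired t-test at its unadjusted threshold, which it did not pass after adjustment. Without each mouse it was 0.28 to 0.38 and did not pass. Without the mouse block, the Trp63 adjusted p was 0.0879, that of Trp63 exon usage was 0.0669 against 0.0157 with the pairing, and the block changed no other call of the 2 genes. Trp63 exon usage had an adjusted p of 0.0798 without the signal filter, 0.167 with the lowest 30% left out, 0.119 without probe set 4826617, 0.365 with each probe set's own spread, and 0.0459 to 0.183 without each mouse. The called Trp63 probe sets were 2 with the lowest 30% left out, 3 with trend and robust moderation and 5 by the methods' test, which also called 1 of Trp73. Trp73 was not called at gene level or for exon usage under any alternative.

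The count of called p53 family regulators was 3 with centred arrays, 3 with the median of probe sets and 0 to 2 without each mouse. That of shared targets was 0 to 5 without each mouse, of p63 targets 9 with the median of probe sets and 0 to 10 without each mouse, and of horizontal basal cell markers 0 to 4 without each mouse. By the methods' test after Benjamini-Hochberg adjustment all 4 counts were 0, with 1 gene called in all. Over all genes, 3335 were called, and 2530, 2072 and 661 without mice 1, 2 and 3. The cause was not tested.

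With 3 mice, the 95% intervals of the differences, 0.09 to 0.52 for Trp63 and -0.19 to 0.58 for Trp73, give the precision reached. Probe sets near the signal floor of 4.88 carry little information on direction. The comparison of isoform regions, with its alternatives, was not run, since probe sets have no positions in the tables used.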
